A study of Homo sapiens with 12 samples.

Results

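The integrated stress response genes examined here were 10: ATF4, ATF5, DDIT3, TRIB3, ASNS, CHAC1, PSAT1, PHGDH, SESN2 and MTHFD2. They were taken by gene name from a table of 62703 genes, as a readout of mitochondrial stress in cells that lack LACTB, and each name matched 1 gene. All 10 passed the filter on low counts, as did 17577 genes in all. The table came from bulk polyA RNA-seq of WTC11 iMGLs, which are microglia-like cells differentiated from a widely used human iPSC line (induced pluripotent stem cells) by way of hematopoietic precursors. J, K and L name the 3 WT clones, whereas A, B and C are the 3 clones with LACTB KO. Both genotypes are clonal CRISPR-edited lines of the same parental cells, the LACTB KO clones were chosen for indels that shift the reading frame or stop it early, and the WT clones are called scrambled controls in the series description. Each clone went through 2 differentiations, so that there were 12 libraries, 6 per genotype, named here by clone and differentiation (J1 is clone J, differentiation 1). All cells grew in medium with IL34, TGFb and MCSF, and all received CX3CL1 and CD200 for the last days of culture. The sample labels date this addition to day 24 and collection to day 27, and the paper's methods place both a day later. No further treatment was given, so every value below is a level in unstimulated culture, with no stressor applied as a positive control.

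The integrated stress response begins when a kinase phosphorylates the translation factor eIF2alpha. Each kinase reads its own stress: EIF2AK1 (HRI) reads heme shortage and mitochondrial damage, EIF2AK2 (PKR) double-stranded RNA, EIF2AK3 (PERK) the endoplasmic reticulum and EIF2AK4 (GCN2) uncharged tRNA. Most translation then slows while the ATF4 mRNA is translated better, and the ATF4 protein induces genes for amino acid supply, redox balance and, under long stress, cell death. In mitochondrial stress the inner-membrane protease OMA1 cleaves DELE1, which leaves the mitochondria and activates EIF2AK1. LACTB, the edited gene, encodes a serine protease-like protein that forms filaments in the mitochondrial intermembrane space. RNA-seq reads this pathway through its target mRNAs, and it reads neither eIF2alpha phosphorylation nor ATF4 protein.

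The edited gene was examined first. LACTB stood at 71.6, 81.2, 78.6, 98.1, 76.4 and 75.4 CPM (the count relative to the TMM-adjusted total of the library) in J1, J2, K1, K2, L1 and L2. It stood at 9.78, 9.52, 44.4, 51.6, 7.93 and 7.49 CPM in A1, A2, B1, B2, C1 and C2. LACTB mRNA was thus below every WT library in all 6 LACTB KO libraries, and clone B kept more of it than clones A and C. An indel need not remove the mRNA, so that its level is only a partial check of the labels. Of 15 microglia markers all were detected, and their sum ran from 5861 to 7721 CPM, but TMEM119 was near 0, with a median of 1.52 CPM in the WT libraries and of 0.615 CPM in the others. Stromal markers such as COL1A1 and DCN, which microglia should lack, differed far more between libraries. Their sum over 12 genes was 9940 CPM in J1 and 4772 CPM in K2, then 1060 in B2, 632 in J2 and 551 in L1, and from 21.7 to 131 CPM in the other 7. J1 and K2 stand apart in this way, and the genotype results of the 10 genes are therefore also given without them, and the counts for the differentiations without clones J and K. In bulk RNA, fewer cells of a type and less RNA per cell cannot be told apart. Deviations from the genotype means also ran together between some clones of different genotype: they correlated at 0.22 and 0.58 between K and B in differentiations 1 and 2, and at 0.20 and 0.41 between L and C. Between J and A the values were -0.010 and 0.045. Across differentiations, J1 and B2 correlated at 0.35 and K1 and C2 at 0.22, but K1 and B2 at -0.53. The labels name no pairs of clones.

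Per length of transcript, the 10 genes covered a wide range in iMGLs. ATF4, the transcription factor at the centre of the response, had a mean of 442 ± 43.3 TPM (SD, n = 12 libraries) and ranked at the 98.4th percentile of 17557 genes. MTHFD2, a mitochondrial folate enzyme, followed at 134 ± 18.5 TPM, then ATF5 at 107 ± 11.7 TPM and SESN2 at 46.6 ± 10.04 TPM. PHGDH (26.9 ± 7.82 TPM), DDIT3 (24.3 ± 6.28 TPM) and PSAT1 (21.0 ± 14.2 TPM) formed a middle group. ASNS had 5.91 ± 4.23 TPM and CHAC1 2.30 ± 2.20 TPM, and TRIB3 was lowest at 2.10 ± 0.853 TPM, the 29.5th percentile. The ranges of neighbours in this order overlapped except between ATF4 and MTHFD2 and between ATF5 and SESN2. CHAC1 was above TRIB3 in only 5 of 12 libraries and PHGDH above DDIT3 in 7 of 12, so the order within those pairs is not settled. ASNS, CHAC1 and TRIB3, well-known targets of ATF4, thus sat at the bottom of the order, while ATF4 mRNA was near the top of all genes. Targets of ATF4 were not all low, since SESN2, also a target, was at the 80.0th percentile. MTHFD2 was at the 93.2th percentile and ATF5 at the 91.2th.

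LACTB KO was compared with WT to ask whether loss of this mitochondrial protein is accompanied by a stress response in the mRNA. After adjustment, none of the 10 genes was called. No adjusted p was under 0.05 among the 10, nor among the 17577 genes tested (0%), by edgeR's quasi-likelihood test of 3 against 3 clones with Benjamini-Hochberg adjustment. LACTB itself was not called by this test either, with a log2 fold change of -1.87 (SE 0.67, 95% interval -3.48 to -0.27, adjusted p = 0.735). A gene left uncalled here is therefore not shown to be unchanged. DESeq2 called 171 genes and still none of the 10. At an unadjusted p under 0.05, 2 of the 10 were lower in LACTB KO (TRIB3 and PSAT1) and 0 were higher, beside 977 genes lower (5.56%) and 141 higher (0.802%) over all genes. The log2 fold change was negative for 8 of the 10 and positive for 2, with a median of -0.19, against 0.0067 for all genes. Without J1 and K2, 5 were positive and 5 negative, with a median of 0.035, against 0.0076 for all genes. In that fit 1 of the 10 (TRIB3) was lower at an unadjusted p under 0.05, beside 349 genes lower and 104 higher of 17265. The plot of CPM by library shows the value in every library, and the plot of log2 fold changes gives the intervals.

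**Figure D1:**
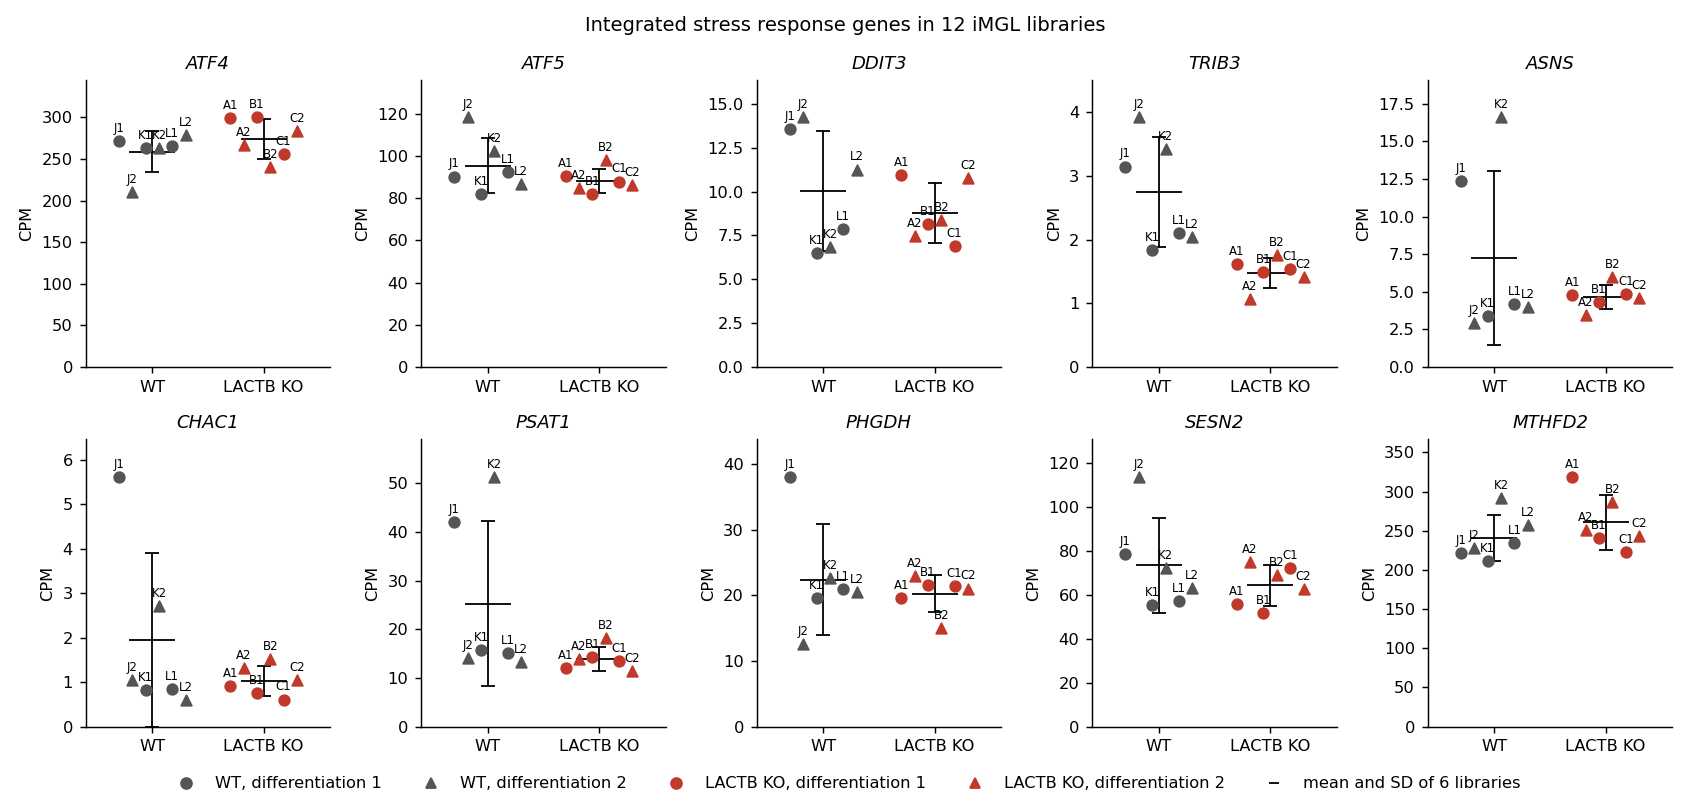
CPM of each of the 10 genes (y axis, from 0, its own scale per panel) in the 6 WT (grey) and 6 LACTB KO (red) libraries, with circles for differentiation 1, triangles for differentiation 2 and bars for the mean and SD of 6 libraries. TRIB3 is the only panel without overlap between genotypes, and J1 and K2 stand above all other libraries for ASNS, CHAC1 and PSAT1.

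**Figure D2:**
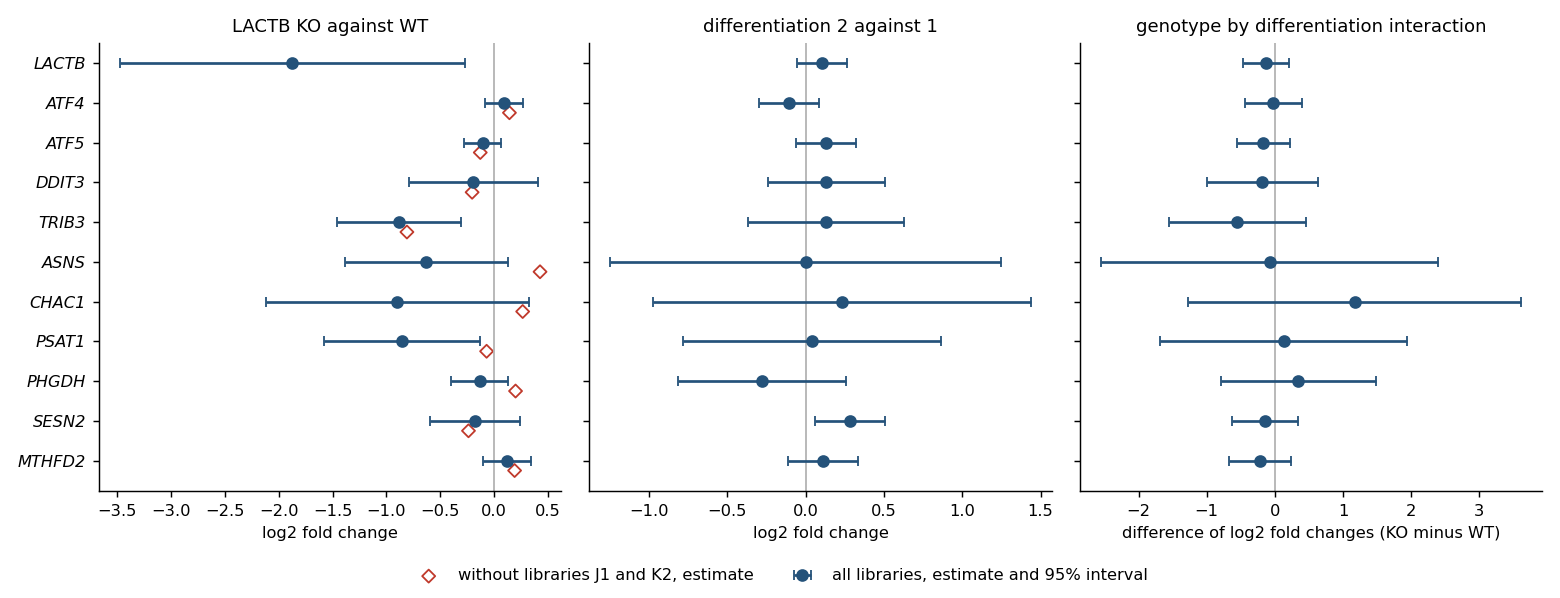
Estimated log2 fold changes with 95% intervals (x axis) of LACTB and the 10 genes for LACTB KO against WT, differentiation 2 against 1 and the interaction of both. Open diamonds in the left panel are the genotype estimates without libraries J1 and K2. They lie to the right of the full estimates for ASNS, CHAC1, PSAT1 and PHGDH, and by less for ATF4, TRIB3 and MTHFD2.

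The 3 transcription factors overlapped between genotypes and had small estimates. ATF4 (ENSG00000128272.18, chr22:39519695-39522683 of GRCh38, plus strand) had a lowest, median and highest value of 210, 265 and 279 CPM in WT and of 240, 276 and 300.2 CPM in LACTB KO. The groups overlapped over most of their range, and the log2 fold change was 0.09 (SE 0.074, 95% interval -0.09 to 0.26, adjusted p = 0.878), and 0.14 without J1 and K2. That interval allows at most a modest change of ATF4 mRNA in either direction. ATF4 is mainly controlled at translation, which these counts do not show. ATF5 (chr19:49928702-49933935, plus strand), a related factor linked to the mitochondrial unfolded protein response, ran from 81.9 to 118 CPM in WT and from 82.0 to 98.0 CPM in LACTB KO. Its log2 fold change was -0.11 (SE 0.073, 95% interval -0.28 to 0.06, adjusted p = 0.878), and -0.13 without J1 and K2. ATF5 overlaps NUP62 and IL4I1 on the other strand, and because the strand setting of the counting is not given in the sources used here, reads of the 3 genes may not be fully separated. DDIT3 (chr12:57516588-57521737, minus strand), which encodes the pro-apoptotic factor CHOP, had 13.5, 14.2, 6.502, 6.84, 7.89 and 11.3 CPM in J1, J2, K1, K2, L1 and L2. It had 10.9, 7.45, 8.16, 8.37, 6.89 and 10.8 CPM in A1, A2, B1, B2, C1 and C2. Both libraries of clone J were highest, the genotypes overlapped, and the log2 fold change was -0.19 (SE 0.25, adjusted p = 0.908). Without clone J it was 0.11, and without J1 and K2 -0.21. DDIT3 overlaps MARS1 and MBD6 on the other strand, which had at least 3678 and 1197 counts per library.

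TRIB3 was the member in which the genotypes did not overlap. TRIB3 (ENSG00000101255.12, chr20:362835-397559, plus strand) encodes a pseudokinase that is induced by ATF4 and DDIT3 and restrains both. It had 3.15, 3.92, 1.83, 3.42, 2.10 and 2.05 CPM in J1, J2, K1, K2, L1 and L2, and 1.62, 1.07, 1.49, 1.76, 1.54 and 1.42 CPM in A1, A2, B1, B2, C1 and C2. The 6 LACTB KO libraries lay below all 6 WT libraries, a pattern that 33 of 17577 genes shared (0.188%). None of the 10 genes showed the opposite pattern, which 10 genes showed in all (0.0569%). The gap was narrow, since K1 held 51 TRIB3 counts and B2 held 50. Exact 95% Poisson intervals, which cover counting error only, were 1.36 to 2.41 CPM for K1 and 1.31 to 2.33 CPM for B2. WT libraries averaged 2.75 ± 0.865 CPM, against 1.48 ± 0.235 CPM with LACTB KO (SD, n = 6 libraries of 3 clones). The log2 fold change was -0.89 (SE 0.24, 95% interval -1.46 to -0.31, 0.541-fold), with an unadjusted p of 0.0085 and an adjusted p of 0.726. The exact two-sided permutation p over clones was 0.1, the smallest that 3 against 3 clones can give. TRIB3 stayed lower in LACTB KO in each of the 15 alternative fits, with log2 fold changes from -1.14 to -0.61 and adjusted p from 0.152 to 0.999. It was -0.81 without J1 and K2 and -0.96 without clone B, whose LACTB mRNA was less reduced. The stromal sum was also higher in WT (median 592 CPM, against 87.9 CPM in LACTB KO), and its part in the TRIB3 difference was not tested.

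ASNS, CHAC1 and PSAT1 behaved alike in 2 libraries. In J1 and K2 each of these 3 genes was above all 10 other libraries, a pattern found in 845 of 17577 genes (4.81%). ASNS, asparagine synthetase, is the gene in which a C/EBP-ATF response element, the composite site bound by ATF4 with a C/EBP partner, is best described. CHAC1 degrades glutathione, and PSAT1 catalyses the middle step of serine synthesis. Sequence from 250 bases before to 50 bases after the start site was read from RefSeq on GRCh38.p14, which gave 17 windows for the 10 genes. The element was searched as TGATGNAA on both strands, and 2 of the 10 genes held it (ASNS in 1 of its 2 windows, and CHAC1), which is 2 of 17 windows, beside 1270 of 35116 promoters (3.617%). The promoters of the 3 genes are shown because these genes moved together in J1 and K2. Capitals mark the match, which begins at position -68 from the start site in ASNS and at -209, on the reverse strand, in CHAC1, and PSAT1 has none in this window. ASNS lies at chr7:97872359-97872658 (minus strand), CHAC1 at chr15:40953221-40953520 (plus strand) and PSAT1 at chr9:78296875-78297174 (plus strand).
ASNS: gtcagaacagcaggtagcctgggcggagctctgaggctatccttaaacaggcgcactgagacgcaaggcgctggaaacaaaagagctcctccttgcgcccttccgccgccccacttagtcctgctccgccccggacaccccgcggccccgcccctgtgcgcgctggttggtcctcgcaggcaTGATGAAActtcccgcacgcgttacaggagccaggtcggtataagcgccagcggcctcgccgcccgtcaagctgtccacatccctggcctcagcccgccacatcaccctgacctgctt
CHAC1: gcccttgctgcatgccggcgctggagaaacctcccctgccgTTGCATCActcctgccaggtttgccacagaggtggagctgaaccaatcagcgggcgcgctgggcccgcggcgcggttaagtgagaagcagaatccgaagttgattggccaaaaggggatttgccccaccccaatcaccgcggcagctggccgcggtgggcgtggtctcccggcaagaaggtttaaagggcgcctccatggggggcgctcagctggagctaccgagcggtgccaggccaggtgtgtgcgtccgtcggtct
PSAT1: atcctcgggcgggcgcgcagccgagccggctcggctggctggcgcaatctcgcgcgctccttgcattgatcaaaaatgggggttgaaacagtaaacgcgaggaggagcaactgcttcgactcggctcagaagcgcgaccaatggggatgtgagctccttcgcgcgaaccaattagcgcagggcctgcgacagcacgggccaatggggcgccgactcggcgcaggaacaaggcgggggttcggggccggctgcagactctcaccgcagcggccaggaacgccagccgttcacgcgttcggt
The palindromic cAMP response element TGACGTCA was in none of the 10 genes' windows and in 1.848% of promoters. CCAAT, searched on both strands, was in 6 of the 10 (CHAC1, DDIT3, MTHFD2, PHGDH, PSAT1 and SESN2). Counted by window it was in 7 of 17 (41.2%), near the 34.6% of all promoters. No match of one motif overlapped a match of another. A match is only a run of letters and was not tested as a binding site.

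ASNS (ENSG00000070669.17, chr7:97851677-97872542, minus strand) had 12.4, 2.95, 3.38, 16.6, 4.17 and 3.98 CPM in J1, J2, K1, K2, L1 and L2. It had 4.81, 3.47, 4.32, 5.97, 4.88 and 4.58 CPM in A1, A2, B1, B2, C1 and C2. J1 and K2 were 2.91 and 3.91 times the median of the other 10 libraries, while those 10 stayed within a 2.02-fold range. The mean was higher in WT (7.24 ± 5.78 CPM) than in LACTB KO (4.67 ± 0.814 CPM; SD, n = 6 libraries of 3 clones), but the median was lower (4.08 against 4.70 CPM). The log2 fold change was -0.63 (SE 0.32, adjusted p = 0.864), and without J1 and K2 it turned to 0.42 (SE 0.19, adjusted p = 0.996). Within clone J ASNS in differentiation 2 was 0.243 times that in differentiation 1, and within clone K it was 4.83 times, so that the same WT genotype went in opposite directions. A lncRNA (ENSG00000284707) overlaps ASNS on the same strand and held 40 to 117 counts per library, and reads between them may be split.

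PSAT1 (ENSG00000135069.14, chr9:78297125-78330093, plus strand) followed the same libraries. It had 42.1, 14.01, 15.8, 51.3, 15.04 and 13.3 CPM in J1, J2, K1, K2, L1 and L2, and 11.98, 13.9, 14.4, 18.1, 13.5 and 11.4 CPM in A1, A2, B1, B2, C1 and C2. J1 and K2 were 3.01 and 3.67 times the median of the other 10, which spanned a 1.59-fold range, the narrowest of the 3 genes. The log2 fold change of -0.85 (SE 0.31, 95% interval -1.58 to -0.13) had an unadjusted p of 0.027, an adjusted p of 0.735 and an exact two-sided permutation p of 0.2 over clones. Without J1 and K2 the log2 fold change was -0.07 (SE 0.14, adjusted p = 0.996). The size of the PSAT1 estimate thus depended on these 2 libraries. Both are WT and were the highest for PSAT1, so that leaving them out had to raise the estimate. With 1 clone left out at a time it ran from -1.14 to -0.58.

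CHAC1 (ENSG00000128965.13, chr15:40952962-40956512, plus strand) had 5.61, 1.05, 0.826, 2.71, 0.841 and 0.606 CPM in J1, J2, K1, K2, L1 and L2. It had 0.912, 1.33, 0.762, 1.52, 0.610 and 1.04 CPM in A1, A2, B1, B2, C1 and C2. J1 was 6.40 times the median of the other 10 libraries, the widest departure of any member, and K2 3.10 times, but these rested on 148 and 77 counts, and L2 had only 16. The log2 fold change was -0.90 (SE 0.51, 95% interval -2.12 to 0.32, adjusted p = 0.878), and 0.26 (adjusted p = 0.996) without J1 and K2. The interval is wide enough that neither a large decrease nor equality can be set aside. Libraries differed by more than counting error, since exact 95% Poisson intervals were 4.75 to 6.60 CPM in J1 and 0.695 to 1.51 CPM in J2.

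Stromal marker RNA was highest in the same 2 libraries as these 3 genes, J1 and K2. B2, which came next with 1060 CPM, was also the third highest library for ASNS, CHAC1 and PSAT1. J2, with 632 CPM, had the lowest ASNS of all. Within clones, ASNS was higher in the library with more stromal marker RNA in 6 of 6 clones, as were 618 of 17577 genes (3.52%), PSAT1 in 5 of 6 and CHAC1 in 4 of 6. TRIB3 and ATF5 were likewise higher there in 5 of 6 clones, PHGDH in 4, DDIT3, SESN2 and MTHFD2 in 3 and ATF4 in 2. PSAT1 and CHAC1 thus did not stand apart from the other members in this count. The share of all genes at 5 or 4 of 6 clones was not counted. All 11 stromal markers tested had a negative log2 fold change in LACTB KO against WT, 9 at an unadjusted p under 0.05, and without J1 and K2 8 of 10 were still negative (median -0.32), none at an unadjusted p under 0.05. The summed proliferation markers were lowest in J1, at 502 CPM against up to 1069 CPM, and microglia markers were within their usual range there. The part of stromal RNA in these levels was not tested.

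**Figure D3:**
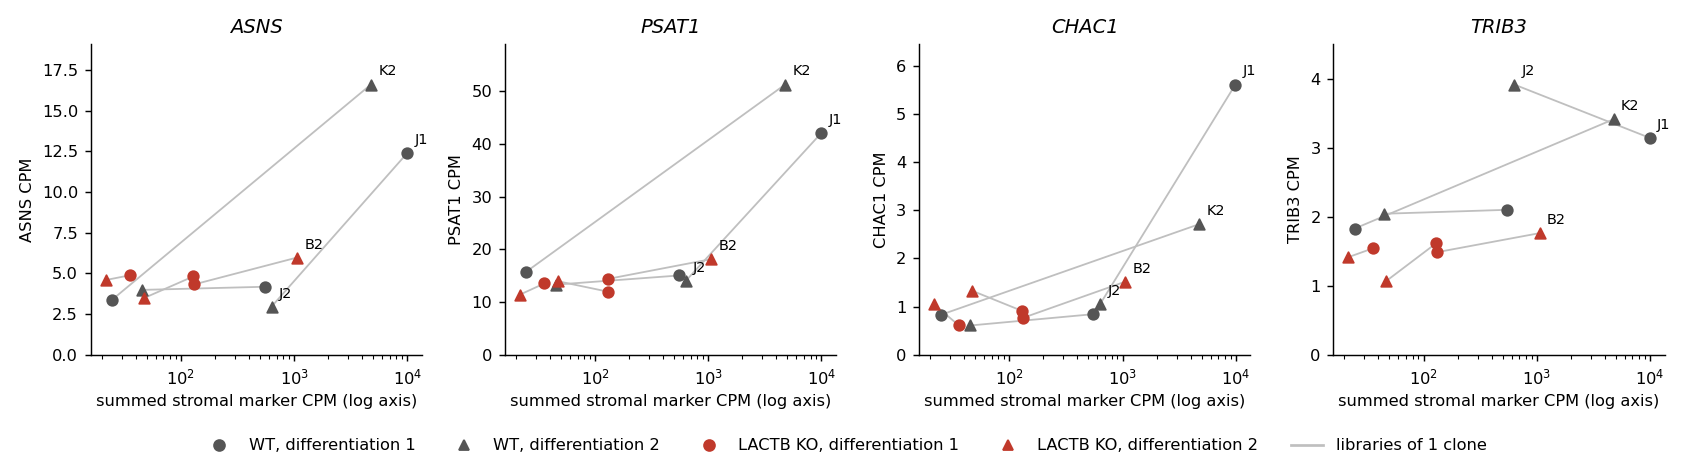
CPM of ASNS, PSAT1, CHAC1 and TRIB3 (y axis, from 0) against the summed CPM of 12 stromal markers (x axis, log scale) in 12 libraries, with grey lines joining the 2 libraries of a clone. J1 and K2 lie at the upper right for ASNS, PSAT1 and CHAC1, and for TRIB3 the 6 WT libraries lie above the 6 LACTB KO libraries.

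The other amino acid and folate enzymes did not follow J1 and K2 together. PHGDH (chr1:119648411-119744218, plus strand), the first enzyme of serine synthesis and so the partner of PSAT1, was at 38.1 CPM in J1 and only 22.7 CPM in K2. J2 had the lowest value, 12.6 CPM, and the other 4 WT libraries together with the 6 LACTB KO libraries lay between 14.97 and 22.9 CPM. Its log2 fold change was -0.14 (SE 0.11, 95% interval -0.40 to 0.13, adjusted p = 0.878), and 0.20 without J1 and K2. MTHFD2 (chr2:74186172-74217565, plus strand), often among the mRNAs most induced by mitochondrial dysfunction, had a lowest, median and highest value of 211, 232 and 292 CPM in WT and of 224, 247 and 319 CPM in LACTB KO. The highest library was A1, at 319 CPM, and the groups overlapped. The log2 fold change of MTHFD2 was 0.12 (SE 0.094, 95% interval -0.11 to 0.34, adjusted p = 0.878), and 0.19 without J1 and K2.

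SESN2, which inhibits mTORC1 and is a target of both ATF4 and p53, had a larger estimate between differentiations than between genotypes. Neither was called, and their sizes were not tested against each other. SESN2 (chr1:28259518-28282491, plus strand) had 78.8, 114, 55.6, 72.3, 57.2 and 63.2 CPM in J1, J2, K1, K2, L1 and L2, and 56.0, 75.2, 51.7, 69.0, 72.2 and 62.5 CPM in A1, A2, B1, B2, C1 and C2. J2 was the highest library. The genotype difference was -0.18 on the log2 scale (SE 0.18, 95% interval -0.60 to 0.24, adjusted p = 0.881), 0.06 without clone J and -0.24 without J1 and K2. Differentiation 2 was above differentiation 1 in 5 of 6 clones, clone C being the exception, with a log2 fold change of 0.28 (SE 0.098, 95% interval 0.06 to 0.51), and of 0.21 (adjusted p = 0.692) without clones J and K. Over all clones this had an unadjusted p of 0.020 and an adjusted p of 0.392 in edgeR with clone as a fixed effect, and an exact two-sided sign-flip permutation p of 0.0938, where 6 clones allow no p below 0.0313.

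**Figure D4:**
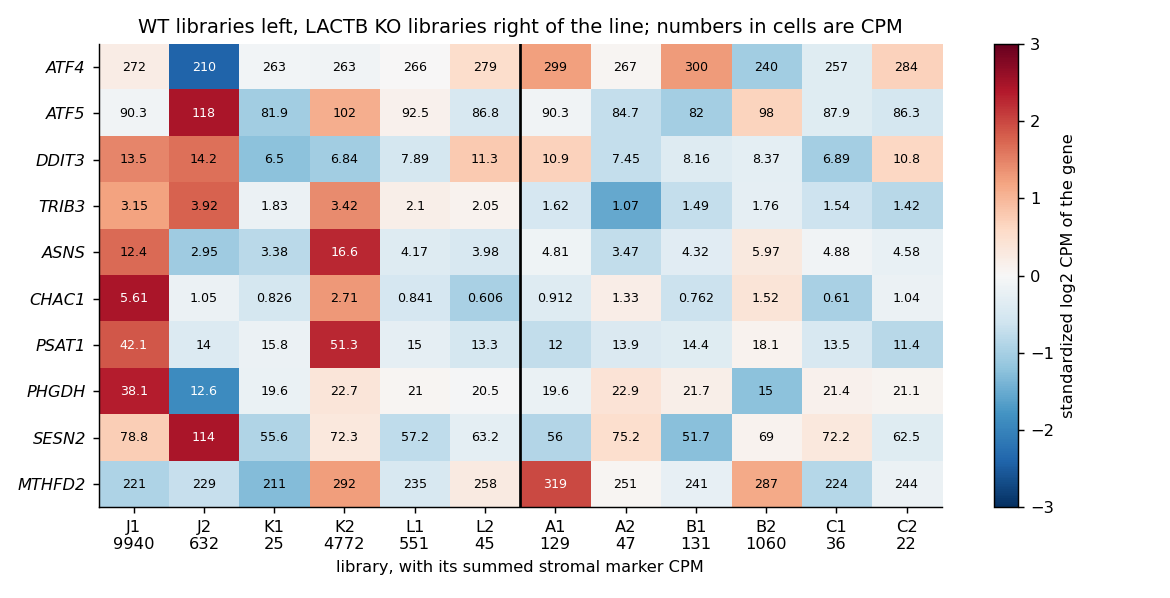
Standardized log2 CPM (colour, in SD of each gene over 12 libraries) of the 10 genes in WT (left) and LACTB KO (right) libraries, with CPM written in each cell and the summed stromal marker CPM under each library. J1 and K2 are red across ASNS, CHAC1 and PSAT1, and J2 is red for ATF5, DDIT3, TRIB3 and SESN2 but blue for ATF4 and PHGDH.

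The differentiations were compared within clones because the labels give the differentiation as batch. None of the 10 genes passed, nor did any of 15530 genes (0%) by edgeR, whereas DESeq2 called 303 genes and none of the 10. At an unadjusted p under 0.05, 1 of the 10 (SESN2) was higher in differentiation 2 and 0 were lower, beside 942 genes higher (6.07%) and 604 lower (3.89%). Estimates were positive for 8 genes and negative for ATF4 and PHGDH, with a median of 0.12 against -0.0028 for all genes. Without clones J and K, 6 were positive and 4 negative, and the median was 0.036. None of the 10 then had an unadjusted p under 0.05, beside 983 genes higher and 404 lower of 15503. ASNS had a log2 fold change of 0.00 with a 95% interval from -1.25 to 1.25, beside the opposite directions in clones J and K. The interval of ATF4 was -0.30 to 0.08 and that of MTHFD2 -0.11 to 0.34. The genotype effect was also compared between the differentiations. The interaction called 0 of the 10 and 0 of 16681 genes (0%) by edgeR and 0 genes by DESeq2, and at an unadjusted p under 0.05 it held 0 of the 10 and 153 genes (0.917%). Its 95% intervals were wide, from -2.55 to 2.40 for ASNS and from -1.27 to 3.62 for CHAC1.

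The wider pathway was read through 6 lists. Of 34 other ATF4 targets 33 were tested, and 0 passed after adjustment. At an unadjusted p under 0.05, 10 of them were lower in LACTB KO (5.56% of all genes were) and 0 higher, while the median over the list was -0.02. VLDLR, a lipoprotein receptor, had a log2 fold change of -2.19 (SE 0.52, adjusted p = 0.726), and STC2, a secreted stanniocalcin, one of -1.56 (SE 0.37, adjusted p = 0.726). The 8 others were ADM2, CBS, NUPR1, INHBE, ALDH1L2, SLC6A9, SLC7A11 and GDF15, named after their values were seen. In 8 of these 10 the highest libraries were J1 and K2, the exceptions being NUPR1 and GDF15, which were highest in J2. Because these 10 were picked as lower in LACTB KO, high WT libraries, such as J1 and K2, were favoured in advance. J1 and K2 were above all others in 845 of 17577 genes (4.81%), and the share among all genes lower in LACTB KO was not counted. STC2 stood at 9.22 CPM in J1 and 9.94 CPM in K2, and at most 3.30 CPM elsewhere. Without J1 and K2, 2 of 33 remained at an unadjusted p under 0.05 (VLDLR at -1.29 and NUPR1 at -4.37), beside 349 of 17265 genes that were lower, and STC2 was at -0.22. These 8 targets shared their highest libraries with the stromal markers, but the summed level of the whole list did not. That sum was 2541 CPM in J1 (rank 11 of the 12 libraries) and 2887 CPM in K2 (rank 4). It was highest in A1, at 3294 CPM. With each gene weighed alike, the mean standardized log2 CPM of the list was highest in K2 (0.64) and J1 (0.44), then in A1 (0.27). The part of stromal RNA in these values was not tested. FGF21, named after its values were seen, a hormone induced by mitochondrial stress in other tissues, had 0 counts in all 12 libraries and was the target not tested. Between differentiations NUPR1 was at 1.55 (unadjusted p = 0.014, adjusted p = 0.355) and the amino acid transporter SLC1A5 at -0.17 (unadjusted p = 0.035, adjusted p = 0.457).

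Upstream of ATF4, none of the 14 sensors and regulators passed or had an unadjusted p under 0.05 between genotypes. Of their estimates, 11 were positive and 3 negative, with a median of 0.05 (10 and 4, and 0.021, without J1 and K2). OMA1, the protease that senses mitochondrial damage, had the smallest p of the list, with a log2 fold change of -0.21 (SE 0.18, adjusted p = 0.878), and EIF2AK1, the kinase at the end of that route, had 0.07 (SE 0.067, adjusted p = 0.881). OMA1 was higher in differentiation 2 at an unadjusted p of 0.031 (log2 fold change 0.32, adjusted p = 0.441), while EIF2B4, a subunit of the exchange factor that phosphorylated eIF2alpha inhibits, had -0.10 (adjusted p = 0.634).

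The other stress lists gave no adjusted call in either comparison. Among 20 cytosolic tRNA synthetases, many of which ATF4 induces, 15 estimates were positive in LACTB KO and 5 negative (14 and 6 without J1 and K2). WARS1 was at -0.14 (adjusted p = 0.804) and VARS1 at 0.16 (adjusted p = 0.838), and between differentiations AARS1 was at 0.21 and VARS1 at -0.12. Among 18 genes of the endoplasmic reticulum unfolded protein response 13 were positive (10 without J1 and K2), with SDF2L1 at 0.27 (adjusted p = 0.783) and DNAJB9 at -0.25 (adjusted p = 0.878). DNAJB9, a chaperone cofactor, had 0.30 between differentiations (unadjusted p = 0.0065, adjusted p = 0.308), and the chaperone HSP90B1 had 0.14. Of 16 mitochondrial chaperones and proteases, 14 estimates were positive in LACTB KO, and none reached an unadjusted p under 0.05. Their median of 0.08 is small, the prohibitin PHB2 was at 0.14 (adjusted p = 0.847) and the import cofactor GRPEL1 at 0.18 (adjusted p = 0.878). Without J1 and K2 only 8 of these 16 were positive, with a median of 0.0080. Between differentiations the protease HTRA2 was at -0.17 and the protease subunit SPG7 at -0.09, neither with an unadjusted p under 0.05.

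The p53 targets were listed because SESN2 belongs to both pathways. All 11 had positive estimates in differentiation 2 against 1, with a median of 0.34, and 6 had an unadjusted p under 0.05, a share to be read against 6.07% of all genes. CDKN1A, the cell cycle inhibitor p21, was higher in differentiation 2 in 6 of 6 clones, with a mean of 459 ± 149 CPM in differentiation 1 and 750.0 ± 147 CPM in differentiation 2 (SD, n = 6 clones), and an exact two-sided sign-flip permutation p of 0.0313, the smallest possible. Its log2 fold change was 0.75 (SE 0.10), with an unadjusted p of 8.17e-05 and an adjusted p of 0.0906, which CCNB1, a proliferation marker named after its values were seen, shared. ZMAT3, a p53-induced RNA-binding protein, also was higher in 6 of 6 clones, at 0.53 (SE 0.12, adjusted p = 0.259). Without clones J and K, 10 of 11 were positive and 8 had an unadjusted p under 0.05, as had 983 of 15503 genes that were higher. Other lists moved in the same comparison: 9 of 10 stromal markers tested were negative (median -0.47; all 10 without clones J and K), and of 10 proliferation markers 3 were higher and 1 lower at an unadjusted p under 0.05. Their part in the p53 values was not tested. Between genotypes none of the 11 had an unadjusted p under 0.05 (CDKN1A at -0.32 and MDM2, the p53 ubiquitin ligase, at -0.12, both with an adjusted p of 0.878).

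**Figure D5:**
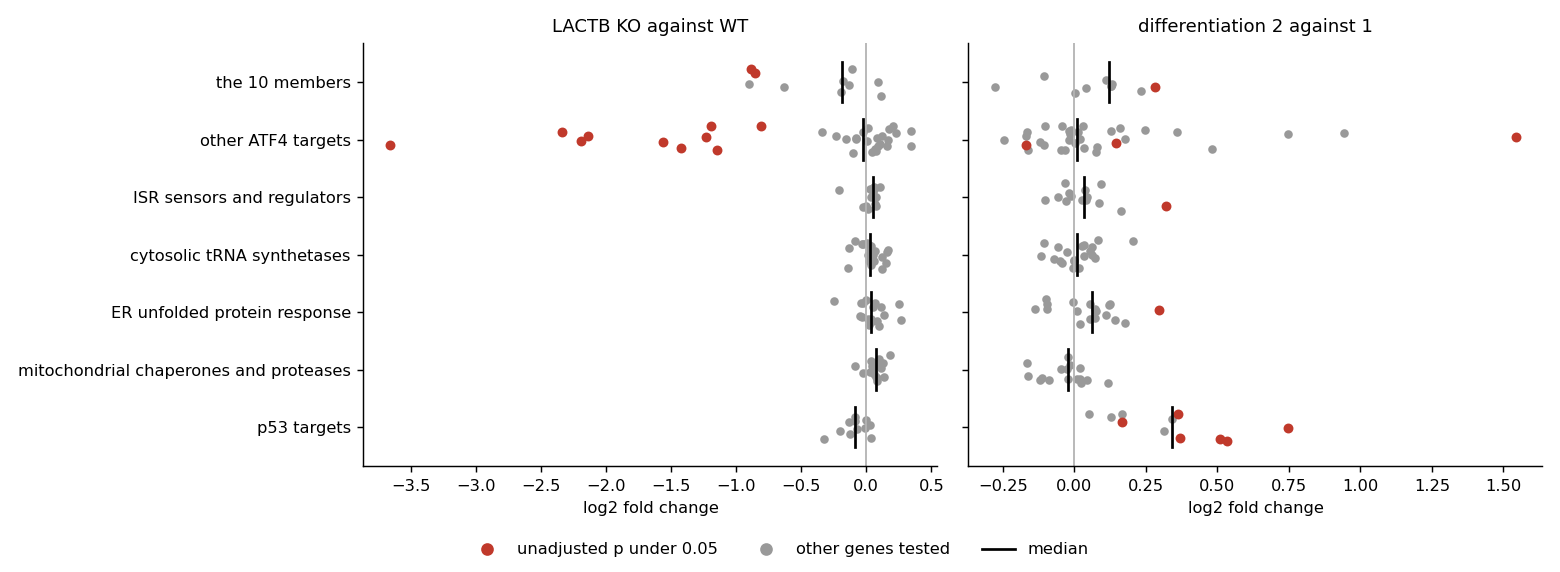
Log2 fold changes (x axis) of the 10 genes and of 6 other lists (y axis) for LACTB KO against WT and for differentiation 2 against 1, with 1 point per gene tested, the list's median as a black line and red for an unadjusted p under 0.05. Other ATF4 targets hold 10 red points on the negative side of the genotype panel, and p53 targets 6 on the positive side of the differentiation panel.

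Across the 12 libraries the 10 genes were only loosely alike. Of 45 pairs 31 had a positive Spearman rho in log2 CPM, with a median of 0.22 and a range from -0.56 to 0.68. ATF5 and TRIB3 were the closest pair (0.68), followed by CHAC1 and SESN2 (0.60) and by TRIB3 and PSAT1 (0.56). The most similar member was PHGDH for ATF4 (0.33), ATF5 for DDIT3 (0.34), CHAC1 for ASNS (0.43), and ASNS for PHGDH (0.39) and MTHFD2 (0.32). These values are descriptions over 12 libraries that share clones, and genotype enters them. The mean standardized level of the 10 genes was 1.10 in J1 and 0.92 in K2 and lay between -0.64 and 0.17 in the other 10 libraries. Outside the 10, the genes most like that mean were CSDC2 (0.98), STX1A (0.96), and COLGALT1, PAM and NLGN1 (each 0.95).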

How the data were processed

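The authors prepared TruSeq polyA libraries from 12 iMGL cultures, sequenced paired ends, trimmed adapters with Cutadapt, used STAR to align them to hg38 and deposited 1 estimated count per gene and library, without scaling. The counting tool, annotation and strand setting are not given in the sources used here. Libraries summed to 24153199 to 28406918 counts after rounding, which was needed because about 11% of values were fractions. Counts of a clone's 2 differentiations were summed, and 3 LACTB KO clones were compared with 3 WT clones in edgeR 4.0.16 (R 4.3.3) with TMM and filterByExpr, by quasi-likelihood tests whose p was adjusted over all genes (Benjamini-Hochberg), at a threshold of 0.05. The study fitted a mixed model for repeated measures, for which the clone sums stand in. Clone sums assume that clones are independent. Differentiations, and the interaction, were tested on 12 libraries with clone as fixed effect. Single genes were also compared by exact permutation over clones. CPM used TMM library sizes, log2 CPM a prior count of 2, and TPM the canonical transcript length in GENCODE v44.

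Named genes were LACTB, the 10 members, in each of 6 pathway lists the 2 genes with the smallest p in the genotype and in the differentiation fit, the 5 genes most like the members' mean, and each member's most similar member. Others are said to be named after their values were seen. Members and lists were chosen with earlier results of these data known. The 7 marker lists were microglia, stromal, granulocyte and mast cell, erythroid and megakaryocyte, endothelial, pluripotent and proliferation genes. In sum, granulocyte and mast cell markers reached at most 1.53 CPM, pluripotent markers 0.746 CPM and erythroid and megakaryocyte markers 10.4 CPM. Endothelial markers summed to 328 to 443 CPM, nearly all PECAM1, which myeloid cells express. Alternatives were DESeq2 1.42.0 and its size factors, no filter, limma 3.58.1 voom with clone as random effect, replicate and clone-pair blocks, each differentiation or genotype alone, and each clone left out. Fits without J1 and K2, and without clones J and K, were added after the data were seen.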

Additional observations from a re-analysis of the deposited data

Results flagged for a closer look

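ATF4 in WT library J2 was at 210 CPM, while the nearest of the other 5 WT libraries was at 263 CPM and the highest at 279 CPM. It was far from its group by Dixon's criterion for 6 values, which 1 of 20 groups tested met, and chance alone meets it in about 1 of 20 groups. J2 was also the WT library with the lowest PHGDH (12.6 CPM) and ASNS (2.95 CPM), and the highest of all 12 for ATF5 (118 CPM), DDIT3 (14.2 CPM), TRIB3 (3.92 CPM) and SESN2 (114 CPM). Among the other ATF4 targets, NUPR1 was at 29.3 CPM and GDF15 at 23.3 CPM in J2, the highest values of these genes in any library.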

How the results depend on the processing

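No member passed in any fit: the 10 genes gave 150 alternative log2 fold changes for the genotype, of which 144 kept their direction, 120 for the differentiation (107 kept it) and 90 for the interaction (80 kept it), and the smallest adjusted p was 0.126. Over all genes, LACTB KO against WT called 2 genes with no filter on low counts, 171 with DESeq2 and 0 to 1 with a clone left out (1 without L and 1 without B), where LACTB itself reached -3.20 (adjusted p = 0.0157) without clone B. Differentiation called 80 genes with no filter, 303 with DESeq2, 10 in LACTB KO clones alone, 22 without clones J and K and 0 to 50 with a clone left out (50 without clone J). The cause was not tested. With the differentiation as replicate block on 12 libraries, the genotype called 0 genes and TRIB3 was at -0.87; libraries of a differentiation had a mean correlation of 0.032 over 18 cross-genotype pairs. Clones were also paired as J with A, K with B and L with C, a pairing that the labels do not give. With these pairs as block TRIB3 was at -0.86. Directions turned as follows. Without J1 and K2 the genotype estimates of ASNS (0.42), CHAC1 (0.26) and PHGDH (0.20) reversed, and in differentiation 2 alone PHGDH (0.077). Between differentiations, ASNS reversed with DESeq2 (-0.0025), CHAC1 (-0.42) and PSAT1 (-0.041) in WT clones alone, TRIB3 (-0.14) and ASNS (-0.017) in LACTB KO clones alone, and TRIB3 (-0.11) and ASNS (-0.025) without clones J and K. With clones left out, genotype estimates ran from -0.41 to 0.11 for DDIT3 and from -0.30 to 0.057 for SESN2. Differentiation estimates then ran from -0.42 to 0.40 for ASNS, from -0.10 to 0.74 for CHAC1, from -0.28 to 0.36 for PSAT1 and from -0.029 to 0.27 for TRIB3. Interaction estimates ran from -1.16 to 1.03 for ASNS, from -0.15 to 0.088 for ATF4, from -0.49 to 0.12 for DDIT3, from -0.20 to 0.69 for PHGDH, from -0.67 to 0.98 for PSAT1 and from -0.25 to 0.059 for SESN2. With 16 to 148 CHAC1 and 29 to 105 TRIB3 counts per library, counting error adds to the spread of both genes. For CHAC1, libraries also differed beyond it.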

Other observations

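A further set of stress genes stood apart in other libraries than J1 and K2. These genes were picked after their values were seen and have no test. PPP1R15A (GADD34), which recruits the phosphatase that reverses eIF2alpha phosphorylation, was at 137 CPM in L2, 103 CPM in A1 and 151 CPM in C2, and between 30.6 and 77.3 CPM in the other 9 libraries. ATF3, an early stress transcription factor, was at 17.5, 12.3 and 10.3 CPM in L2, A1 and C2, and at most 7.62 CPM in the others. DDIT4, an inhibitor of mTORC1, was at 353, 339 and 394 CPM in these 3 libraries and at most 218 CPM in the others. DDIT3 was at 11.3, 10.9 and 10.8 CPM there, above 7 of the other 9 libraries but below J1 and J2. GDF15 was at 7.69, 7.17 and 5.29 CPM in L2, A1 and C2, above the median of the other 9 (2.98 CPM) but below their highest (23.3 CPM). NUPR1 did not stand apart there, at 1.44, 0.249 and 0.895 CPM, beside a median of 1.02 CPM in the other 9. The 3 libraries span both genotypes and both differentiations, and their stromal sums were low, at 45.1, 129 and 21.7 CPM. ASNS (3.98, 4.81 and 4.58 CPM) and PSAT1 (13.3, 11.98 and 11.4 CPM) were not high in them.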
